A study of Mus musculus with 10 samples.

Results

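The 9 genes described here make retinoic acid, break it down or receive it: the retinaldehyde dehydrogenases Aldh1a1, Aldh1a2 and Aldh1a3, the hydroxylase Cyp26b1, the retinoic acid receptors Rara and Rarb, and the retinoid X receptors Rxra, Rxrb and Rxrg. They were taken by gene symbol, as 9 of the 54838 Ensembl genes counted in each library. Retinoic acid is made from vitamin A: retinol is oxidised to retinaldehyde, retinaldehyde dehydrogenases oxidise that to retinoic acid, and CYP26 enzymes hydroxylate retinoic acid for removal. Inside the nucleus retinoic acid binds a retinoic acid receptor paired with a retinoid X receptor, and the pair sits on repeated hexamers near target genes. In the adult hippocampus the pathway is known for its part in synaptic plasticity and in the neurogenesis of the dentate gyrus.

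The libraries hold ribosome-bound RNA from mossy cells, the glutamatergic neurons of the dentate hilus, and from the other hippocampal cells in which the Drd2-Cre driver is active. All mice were C57BL/6 males of about 10 weeks with the genotype Drd2-Cre;Eef1a1LSL.eGFPL10a/+, in which Cre switches on an EGFP-tagged ribosomal protein L10a, and both groups carried both alleles. The groups were the dorsal part of the hippocampus (5 libraries) and the longer ventral remainder, freed of ventral subiculum (5 libraries), and each library pooled the tissue of 5 mice. The number of mice in the methods means that the dorsal and ventral libraries shared animals, but the sources used here do not say whether equal replicate numbers mark the same pool. The Drd2-Cre driver also labels some GABAergic interneurons, and no unprecipitated RNA is part of the comparison.

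The counts assigned to genes ranged from 11138676 to 20594364 per library, so that 3 counts, taken as the lowest level a library can show, were 0.142 to 0.282 CPM (a library's counts on its scaled total). The share of reads counted on no annotated feature is called the no-feature share. It was 21.8 to 33.9% in dorsal and 11.6 to 19.3% in ventral libraries, without overlap. The feature type is not given in the sources used here, so reads in introns may be part of it. Of 6 mossy cell markers, Drd2 was at 28.1 ± 3.96 CPM in dorsal against 20.7 ± 4.36 CPM in ventral libraries (mean ± SD, n = 5 each), and Calb2, which marks ventral mossy cells, was at 65.2 ± 9.32 and 616 ± 94.6 CPM. The mossy cell marker Csf2rb2 was close to the lowest level countable, at 0.521 ± 0.393 and 0.651 ± 0.378 CPM, and the interneuron gene Gad2 was at 2853 ± 453 and 3174 ± 407 CPM. The summed level of 6 astrocyte markers was 1834 to 2088 CPM in dorsal against 660 to 1212 CPM in ventral libraries, and that of 6 oligodendrocyte markers was 2199 to 2574 against 792 to 1453 CPM. In such bulk RNA, fewer cells of a type and less RNA per cell cannot be told apart.

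Cyp26b1 and Aldh1a1 were the members whose dorsal and ventral libraries did not overlap, and Rarb is the member whose promoter holds a retinoic acid response element, so these 3 promoters are shown. Each sequence is the 250 bases before the RefSeq transcription start in GRCm38.p6, on the strand of the gene, 5′ to 3′. They lie at chr6:84593811-84594060 (minus strand) for Cyp26b1, chr19:20601718-20601967 (plus strand) for Aldh1a1 and chr14:16575477-16575726 (minus strand) for Rarb. The capitals mark the pair of hexamers found in Rarb.
Cyp26b1: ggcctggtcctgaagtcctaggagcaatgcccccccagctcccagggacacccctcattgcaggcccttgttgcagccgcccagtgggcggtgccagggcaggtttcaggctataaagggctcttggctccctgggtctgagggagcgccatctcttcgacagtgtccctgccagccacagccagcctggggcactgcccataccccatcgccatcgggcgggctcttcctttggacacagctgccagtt
Aldh1a1: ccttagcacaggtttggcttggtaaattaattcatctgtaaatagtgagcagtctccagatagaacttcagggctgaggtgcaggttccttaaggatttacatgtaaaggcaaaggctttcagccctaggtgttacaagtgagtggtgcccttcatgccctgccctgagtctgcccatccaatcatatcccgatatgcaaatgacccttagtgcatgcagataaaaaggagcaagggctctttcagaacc
Rarb: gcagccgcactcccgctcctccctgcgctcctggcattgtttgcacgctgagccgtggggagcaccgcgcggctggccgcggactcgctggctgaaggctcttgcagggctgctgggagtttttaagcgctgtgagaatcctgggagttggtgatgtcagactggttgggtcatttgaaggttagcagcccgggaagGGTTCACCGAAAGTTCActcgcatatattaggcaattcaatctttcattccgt
The search took direct repeats of the hexamer AGGTCA or any of its variants AGTTCA and also GGGTCA and also GGTTCA, in any pairing, with 1, 2 or 5 bases between them, on both strands, in the window from 250 bases before to 50 bases after the start. Of 15 such windows of 8 members (Aldh1a3 has none in the table used), the Rarb window shown held 1 repeat, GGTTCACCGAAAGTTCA with 5 bases between the hexamers, from base -53 to base -37 before the start. Among all 32851 promoter windows, 0.222% held a repeat with a spacing of 1 base, 0.268% with 2 bases and 0.0974% with 5 bases. A match is a run of letters and not a measured binding site. In the gene annotation used for names and lengths, 98 of the 250 bases shown for Cyp26b1 and all of those for Aldh1a1 and Rarb lie inside the gene's span, which begins further upstream.

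Across the members, 1 of 3 synthesis genes, the breakdown gene and 1 of 5 receptor genes met the thresholds for a difference between dorsal and ventral libraries. Cyp26b1 and Aldh1a1 were higher in dorsal and Rxrg in ventral libraries, whereas the fold changes of Aldh1a2, Aldh1a3, Rara, Rarb, Rxra and Rxrb did not meet them. The thresholds were an adjusted p of edgeR below 0.05 and a log2 ratio of mean CPM + 1 beyond 0.58. The ratio with added CPM is a criterion of the present fit, where the study's methods name the log2 fold change. With the fitted fold change in its place the same 3 members met the thresholds. The 9 genes were chosen by pathway with their dorsal and ventral levels in this contrast known, and the study used Cyp26b1 as a dorsal marker, so their differences are given as a description without p-values. All 9 genes passed the filter on low counts. Of them, 2 met the thresholds as higher in dorsal libraries, where 15.7% of all 16806 tested genes did, and 1 as higher in ventral libraries, where 9.85% did (25.5% in either direction). In 2 of the 9, each dorsal library lay above each ventral one, against 9.81% of all tested genes, and in 0 of the 9 the reverse held, against 8.36% (18.2% in either direction), and nothing is read from these counts. The log2 fold changes (dorsal over ventral) were above 0 in 5 members and below 0 in 4, with a median of 0.0033, beside a median of -0.0044 over all tested genes.

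**Figure D1:**
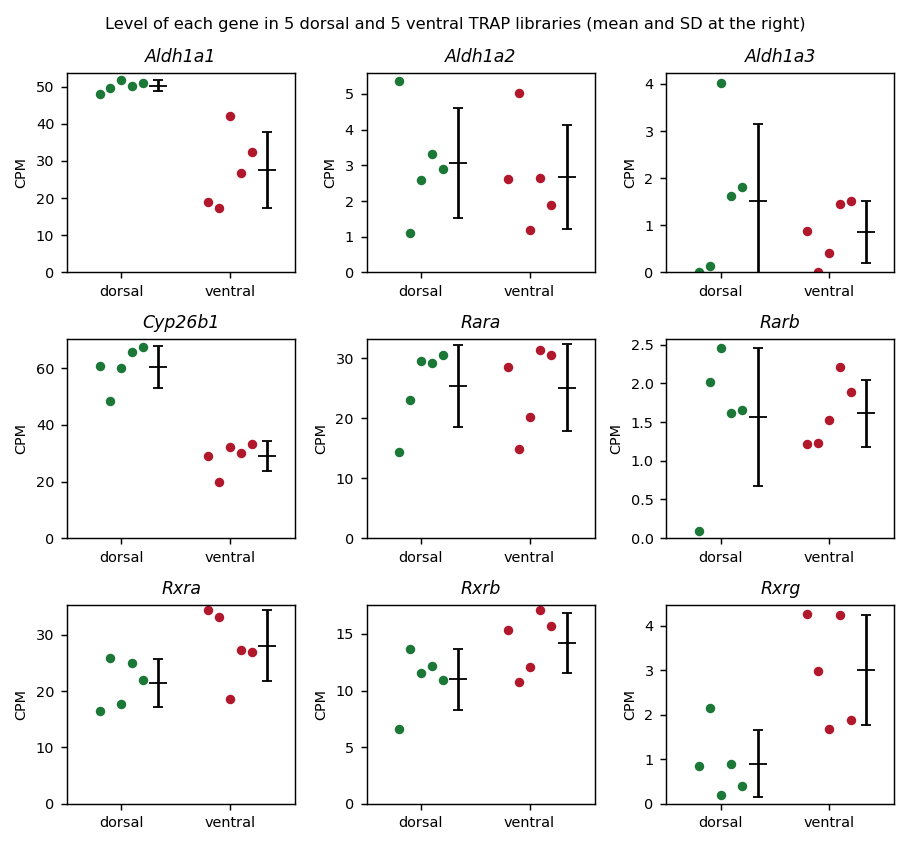
Level of each member in CPM (vertical axis, from 0) in the 5 dorsal (green) and 5 ventral (red) libraries, 1 point per library, with the mean and SD at the right of each group. The dorsal points of Cyp26b1 (48.5 to 67.3 CPM) and Aldh1a1 (48.0 to 51.9 CPM) lie above all ventral points, and the points of the other 7 genes overlap.

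Aldh1a1 encodes a cytosolic retinaldehyde dehydrogenase (ENSMUSG00000053279, chr19:20492715-20643465, plus strand). In dorsal replicates 1 to 5 it was at 48.0, 49.7, 51.9, 50.3 and 51.1 CPM, and in ventral replicates 1 to 5 at 18.9, 17.3, 42.2, 26.7 and 32.3 CPM. The dorsal libraries lay close together (SD 2.94% of the mean), the ventral ones varied by 37.2% of their mean, and ventral replicate 3 came nearest to the dorsal level. The means were 50.2 ± 1.47 and 27.5 ± 10.2 CPM, a log2 fold change of 0.87 ± 0.20 (SE). The no-feature share differs between the groups without overlap. With it as a covariate, the log2 fold change was 0.46 ± 0.36 (SE) and no longer met the thresholds. The astrocyte and oligodendrocyte markers were also higher in dorsal libraries, with 4 of 6 and 3 of 6 meeting the thresholds (15.7% of all tested genes did). No marker of either list was at 0, while Aldh1l1, also an astrocyte marker, was higher in ventral libraries. Their part in the level of Aldh1a1 was not tested. Of the 50-base stretches of Aldh1a1, 3.06% also occur in Aldh1a7, its near copy, which had 2 counts in all dorsal libraries together and 30 in the ventral ones, 27 of them in ventral replicate 2.

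Aldh1a2, the dehydrogenase known from the embryo and from the meninges, was far lower (ENSMUSG00000013584, chr9:71215789-71296243, plus strand). Its level was 5.36, 1.10, 2.59, 3.30 and 2.91 CPM in the dorsal replicates (1 to 5) and 2.61, 5.02, 1.18, 2.66 and 1.89 CPM in the ventral ones. The groups overlapped over nearly their whole range, and the log2 fold change was 0.19 ± 0.42 (SE). The summed level of 6 meningeal fibroblast markers was 5.39 to 15.95 CPM in dorsal against 14.4 to 21.6 CPM in ventral libraries, with Col1a1 and Col1a2 higher in dorsal and Dcn higher in ventral libraries. The part of these cells in the level of Aldh1a2 was not tested.

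Aldh1a3, the third retinaldehyde dehydrogenase, had the lowest level per exonic length of the 9 genes (ENSMUSG00000015134, chr7:66390890-66427517, minus strand). It was at 0, 0.130, 4.02, 1.62 and 1.81 CPM in the dorsal replicates (1 to 5) and at 0.888, 0, 0.422, 1.46 and 1.51 CPM in the ventral ones. Dorsal replicate 1 and ventral replicate 2 held no read of it, and dorsal replicate 3 alone stood above 2 CPM. The log2 fold change of 0.70 ± 0.73 (SE) was smaller than its error.

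Cyp26b1 encodes the main retinoic acid hydroxylase of the adult brain (ENSMUSG00000063415, chr6:84571414-84593908, minus strand). It was at 60.9, 48.5, 60.2, 65.9 and 67.3 CPM in dorsal replicates 1 to 5. In ventral replicates 1 to 5 it was at 29.0, 19.9, 32.3, 29.9 and 33.2 CPM. The lowest dorsal library, replicate 2, stood clear of the highest ventral library, replicate 5, and replicate 2 was the lowest in each group. The means were 60.5 ± 7.43 and 28.9 ± 5.30 CPM, 2.10-fold higher in dorsal libraries, with a log2 fold change of 1.05 ± 0.15 (SE). Over the 22 alternative settings the log2 fold change ran from 0.96 to 1.44, which describes these same libraries and is no further test. With the no-feature share as a covariate the log2 fold change was 1.12 ± 0.29 (SE). The astrocyte and oligodendrocyte markers described beside Aldh1a1 were higher in the same libraries, and their part in the level of Cyp26b1 was not tested.

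The related hydroxylases Cyp26a1 and Cyp26c1 had no read in dorsal libraries and few in ventral ones. Cyp26a1, which retinoic acid itself is known to induce, had 0 counts in all dorsal libraries together and 50 in the ventral ones, at 0.111, 0, 2.03, 0.633 and 0.661 CPM in the ventral replicates (1 to 5). Cyp26c1 had 0 dorsal and 6 ventral counts, and 0 counts over the dorsal group allow a level of up to 0.0428 CPM. Neither passed the filter of more than 1 CPM in at least 2 libraries, so neither was tested there. In the fit without that filter Cyp26a1 was called, through its ventral reads alone. Of these 50 counts, 24 were in ventral replicate 3, and nothing is read from that call. By these counts Cyp26b1 was the CYP26 gene with nearly all of the reads.

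Synthesis and breakdown were also set against each other within each library. Per kilobase of exon, Cyp26b1 was 0.954 ± 0.0819 times the sum of Aldh1a1, Aldh1a2 and Aldh1a3 in dorsal libraries and 0.794 ± 0.161 times in ventral libraries (mean ± SD, n = 5 each), with ranges of 0.856 to 1.05 and 0.649 to 1.05. The ranges overlapped through ventral replicate 1, and the other ventral libraries lay below all dorsal ones. The ratio of breakdown to synthesis transcripts therefore did not separate the groups in full, as Cyp26b1 or Aldh1a1 alone did. Aldh1a1 made up 80.4 to 95.1% of the summed dehydrogenase level per kilobase in dorsal libraries (mean 86.1%) and 61.3 to 93.3% in ventral libraries (mean 78.4%). Aldh1a2 made up 11.2 ± 5.46 and 18.9 ± 12.7%, and Aldh1a3 2.68 ± 2.81 and 2.71 ± 2.07%.

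**Figure D2:**
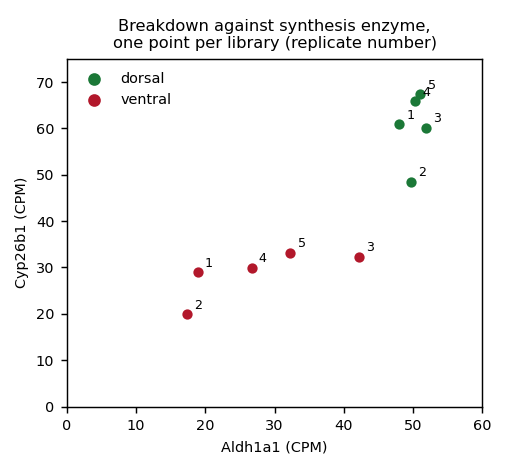
Level of Cyp26b1 (vertical axis) against Aldh1a1 (horizontal axis), both in CPM, with 1 point per library and its replicate number, dorsal in green and ventral in red. The dorsal libraries lie between 48.0 and 51.9 CPM of Aldh1a1, while the ventral ones spread from 17.3 to 42.2 CPM at 19.9 to 33.2 CPM of Cyp26b1.

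Rara encodes the retinoic acid receptor with the widest expression (ENSMUSG00000037992, chr11:98927818-98974942, plus strand). It was at 14.4, 22.9, 29.6, 29.2 and 30.5 CPM in the dorsal replicates (1 to 5) and at 28.5, 14.8, 20.2, 31.4 and 30.5 CPM in ventral ones. Dorsal replicate 1 and ventral replicate 2 were the lowest of their groups, and the ranges nearly coincided. The log2 fold change was -0.0034 ± 0.22 (SE).

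Rarb encodes the receptor beta, itself a known target of retinoic acid through the repeat shown above (ENSMUSG00000017491, chr14:16430839-16819156, minus strand). It was at 0.0941, 2.01, 2.45, 1.62 and 1.65 CPM in the dorsal libraries and 1.22, 1.23, 1.52, 2.21 and 1.89 CPM in the ventral ones, replicates 1 to 5 in order. Dorsal replicate 1, with 1 read, stood below the rest, and the others overlapped between the groups. The log2 fold change was 0.0033 ± 0.44 (SE). Of its exonic length, 38.4% is shared with the neighbours Top2b and Gm48162, and reads there cannot be assigned, so its count is uncertain.

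Rarg, the third receptor of the family and no member of the 9, was at 1.36 ± 0.438 CPM in dorsal against 0.856 ± 0.386 CPM in ventral libraries and did not meet the thresholds. Of the summed level of Rara, Rarb and Rarg per kilobase, Rara made up 90.6 ± 2.95% in dorsal and 91.8 ± 1.52% in ventral libraries. Rarb made up 4.25 ± 2.32 and 5.07 ± 1.12%, shares that may be too low because part of its exonic length is shared with neighbours.

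Rxra encodes the retinoid X receptor alpha (ENSMUSG00000015846, chr2:27676440-27762957, plus strand). It was at 16.5, 25.9, 17.7, 25.0 and 21.9 CPM in the dorsal libraries and 34.5, 33.1, 18.6, 27.3 and 26.9 CPM in the ventral ones, replicates 1 to 5 in order. Apart from ventral replicate 3, the ventral libraries lay above all dorsal ones, and the log2 fold change was -0.38 ± 0.19 (SE). With GC content and gene length as offsets it was -0.0052 ± 0.17 (SE).

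Rxrb encodes the beta receptor, which is expressed in most tissues (ENSMUSG00000039656, chr17:34031812-34038399, plus strand). It was at 6.59, 13.6, 11.6, 12.2 and 10.9 CPM in the dorsal libraries and 15.4, 10.7, 12.1, 17.1 and 15.7 CPM in the ventral ones, replicates 1 to 5 in order. The groups overlapped, with ventral replicates 2 and 3 inside the dorsal range, and the log2 fold change was -0.37 ± 0.21 (SE). With GC content and gene length as offsets the log2 fold change was -0.063 ± 0.18 (SE).

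Rxrg encodes the gamma receptor, known in brain from the striatum (ENSMUSG00000015843, chr1:167598384-167639623, plus strand). It was at 0.847, 2.14, 0.204, 0.901 and 0.393 CPM in the dorsal libraries and 4.27, 2.99, 1.69, 4.24 and 1.89 CPM in the ventral ones, replicates 1 to 5 in order. Dorsal replicate 2 lay above ventral replicates 3 and 5, so the groups overlapped, whereas the other dorsal libraries lay below all ventral ones. The means were 0.898 ± 0.757 and 3.02 ± 1.24 CPM, 3.36-fold higher in ventral libraries, with a log2 fold change of -1.71 ± 0.50 (SE) resting on 65 dorsal and 238 ventral counts. The thresholds were not met without dorsal replicate 5 (log2 fold change -1.52) or with the no-feature share as a covariate (-0.84 ± 1.12, SE). Without dorsal replicate 2 the log2 fold change was -2.36. The summed level of 9 interneuron markers was 3362 to 4487 CPM in dorsal and 4111 to 5356 CPM in ventral libraries. That of 6 mossy cell markers was 582 to 740 and 1150 to 1419 CPM. Most of the latter gap came from Calb2, which marks ventral mossy cells, at 65.2 ± 9.32 and 616 ± 94.6 CPM. Of these lists, 3 and 2 genes met the thresholds as higher in ventral libraries, where 9.85% of all tested genes did. No marker was at 0 in all libraries, while the mossy cell marker Gria3 was higher in dorsal libraries. Their part in the level of Rxrg was not tested.

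Within the retinoid X receptors, Rxra was the most abundant per kilobase in both groups. It made up 55.7 ± 3.58% of the summed level in dorsal and 51.1 ± 5.87% in ventral libraries. Rxrb made up 39.0 ± 5.01 and 36.1 ± 6.48%, and Rxrg 5.27 ± 3.59 and 12.7 ± 3.41%, with Rxrg ranges of 1.43 to 10.2% and 8.48 to 16.6%.

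The levels of the 9 genes were next put in order per kilobase of exon, over all 10 libraries. The order was Cyp26b1 (8.35 CPM per kilobase), Aldh1a1 (7.87), Rara (5.77), Rxra (4.53), Rxrb (3.17), Aldh1a2 (1.26), Rxrg (0.852), Rarb (0.302) and Aldh1a3 (0.257). The level of Rarb was divided by its whole exonic length, of which 38.4% is shared with neighbours. Its level and its steps to Rxrg and Aldh1a3 are uncertain for that reason, and the level may be too low. Each gene was compared with the next in order within each library by a two-sided exact permutation test (sign flips over 10 libraries), with adjustment over the 8 pairs. The test treats the 10 libraries as independent, although dorsal and ventral libraries shared animals, so its p-values may be too small. The pairs were also set by the order in these same libraries. Rxra exceeded Rxrb in 10 of 10 libraries, by 0.51 ± 0.33 on the log2 scale (mean ± SD). The exact p was 0.00195, the smallest that sign flips of 10 libraries allow, and the adjusted exact p was 0.0156. Rxrb exceeded Aldh1a2 in 9 of 10 libraries, by 1.43 ± 1.01 on the log2 scale (adjusted exact p = 0.0234). The second of these steps separates the 5 most abundant genes from the other 4. For the other 6 pairs of neighbours the difference was not larger than the spread between libraries, as for Cyp26b1 over Aldh1a1 (higher in 7 of 10 libraries, log2 ratio 0.08 ± 0.28, adjusted exact p = 0.395) and Rxrg over Rarb (8 of 10 libraries, 1.27 ± 1.78, adjusted exact p = 0.138). The order holds for the mean of both groups. In dorsal libraries it was the same except that Rarb (0.298) came last, behind Aldh1a3 (0.328), while in ventral libraries Rara (5.74) came ahead of Aldh1a1 (5.57), Cyp26b1 (5.39) and Rxra (5.14), and Rxrg (1.31) ahead of Aldh1a2 (1.18). The order of Rara and Rxra depended on libraries and on length: the log2 ratio of 0.34 ± 0.52 had an adjusted exact p of 0.138, which was 0.0156 (log2 ratio 0.47) without ventral replicate 2, and by coding length Rxra stood above Rara (-0.14). Without dorsal replicate 3 the step from Rxrg to Rarb passed the test (log2 ratio 1.65, adjusted exact p = 0.0313), and by coding length the ratio was 0.32.

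**Figure D3:**
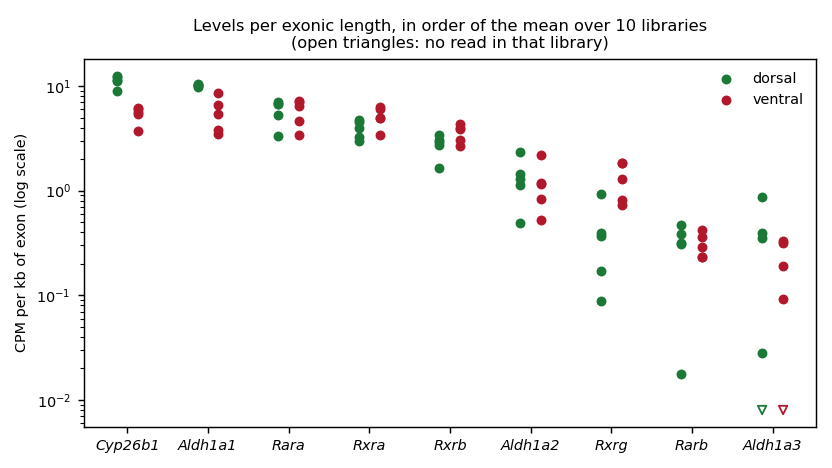
Level of each member in CPM per kilobase of exon (vertical axis, log scale) in each dorsal (green) and ventral (red) library, with the genes ordered by their mean over 10 libraries and open triangles for libraries without a read. Cyp26b1, Aldh1a1, Rara, Rxra and Rxrb have means from 8.35 down to 3.17, and the other 4 genes lie at 1.26 or less.

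The rest of the pathway was followed in 72 further genes: carriers, retinol dehydrogenases, the other hydroxylases and receptor, coregulators, partner receptors of the retinoid X receptors and known target genes. Of these, 44 passed the filter, 5 of them through the libraries of 1 group alone. In the edgeR quasi-likelihood test with adjustment over all tested genes, 6 of the 44 were higher in dorsal libraries (15.7% of all tested genes were), 5 were higher in ventral libraries (9.85%) and 33 did not pass, with a median log2 fold change of 0.10. Crabp2, Nr1h4, Rarres2 and Rpe65 entered the test only through the group in which they were higher, so their values are given below without a p. Among the 39 genes that entered through both groups, 3 were higher in dorsal libraries, against 10.5% of the 14902 such genes, and 4 in ventral libraries, against 8.92%. The genes called were carriers, retinol and retinaldehyde enzymes, 1 partner receptor and target genes, and 0 of 10 corepressors and coactivators did, where the median log2 fold change was 0.16. With the no-feature share as a covariate, 1 gene was higher in dorsal (Nr1h4) and 1 in ventral libraries (Fabp5).

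Of 7 tested carriers, 1 was called higher in dorsal (15.7% of all tested genes were) and 2 in ventral libraries (9.85%). The dorsal call, Crabp2, entered the test through dorsal libraries alone, and nothing is read from these counts. Fabp5, known to carry fatty acids and retinoic acid to the partner receptor Ppard, was higher in ventral libraries, at 55.7 to 68.7 against 30.0 to 37.3 CPM without overlap (log2 fold change -0.94 ± 0.12, SE, edgeR adjusted p = 0.000146), and it passed in all 22 alternative settings. Crabp2, known to deliver retinoic acid to retinoic acid receptors, was near the lowest countable level, at 1.12 ± 0.351 CPM in dorsal libraries and 0.269 ± 0.395 CPM in the ventral ones (log2 fold change 2.29 ± 0.74, SE). It did not meet the thresholds with DESeq2, with the edgeR 3 dispersions or without dorsal replicate 5 or ventral replicate 1, 4 or 5 (log2 fold changes of 2.21, 2.01, 2.25 and 1.94), and without ventral replicate 2 the log2 fold change was 3.50. Nor did Crabp2 meet them with the no-feature share as a covariate (2.64 ± 1.33, SE). Rbp4, which carries retinol in blood, was higher in ventral libraries (2.69 ± 1.06 against 6.60 ± 3.25 CPM, log2 fold change -1.29 ± 0.41, SE, edgeR adjusted p = 0.0266). Its edgeR adjusted p was from 0.0544 to 0.0594 without dorsal replicate 2 or 5 or ventral replicate 1 or 4. It also failed with the replicate block, with the no-feature share as a covariate and in both settings with GC content and length offsets. That makes 8 of 22 alternatives. The summed level of 5 choroid plexus markers, cells known for carrier proteins of retinol, was 120 to 965 CPM in dorsal against 182 to 425 CPM in ventral libraries, with overlap, and its part in these levels was not tested.

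Of 10 tested retinol dehydrogenases and retinaldehyde reductases, 2 were higher in dorsal (15.7% of all tested genes were) and 3 in ventral libraries (9.85%). Of the 3, Rpe65 entered the test through ventral libraries alone, and nothing is read from these counts. Rdh10, which oxidises retinol to retinaldehyde ahead of the Aldh1a enzymes, was higher in dorsal libraries, at 15.0 to 20.6 against 8.22 to 14.5 CPM without overlap (log2 fold change 0.70 ± 0.19, SE, edgeR adjusted p = 0.0138), but without dorsal replicate 3 or ventral replicate 1 or 4 (fitted log2 fold changes of 0.64, 0.62 and 0.62) the log2 ratio of mean CPM + 1 no longer reached the fold criterion. With the no-feature share as a covariate the log2 fold change of Rdh10 was 0.22 ± 0.36 (SE) and did not pass. Dhrs3, which reduces retinaldehyde back to retinol, was higher in ventral libraries (4.73 ± 1.55 against 8.10 ± 1.13 CPM, log2 fold change -0.77 ± 0.25, SE, edgeR adjusted p = 0.0286). It did not pass without dorsal replicate 1 (-0.64), 2 (-0.68) or 4 (-0.83) or ventral replicate 4 (-0.71) or 5 (-0.72). Nor did it pass without the filter, with the edgeR 3 dispersions, with the no-feature share as a covariate or in either setting with GC content and length offsets. That makes 10 of 22 alternatives. Dhrs4, a reductase of retinaldehyde and other carbonyls, was higher in dorsal libraries (10.7 ± 3.19 against 5.89 ± 2.26 CPM, log2 fold change 0.83 ± 0.29, SE, edgeR adjusted p = 0.0385). Its edgeR adjusted p was between 0.0578 and 0.0933 without dorsal replicate 2, 3 or 5 or ventral replicate 3, 4 or 5. It also failed with the replicate block, the edgeR 3 dispersions or the no-feature share as a covariate. That makes 9 of 22 alternatives. Adh5, an alcohol dehydrogenase best known for formaldehyde, was higher in ventral libraries, at 48.3 to 59.9 against 22.2 to 46.6 CPM without overlap (log2 fold change -0.80 ± 0.17, SE, edgeR adjusted p = 0.00318). Under the no-feature covariate the log2 fold change of Adh5 was -0.31 ± 0.30 (SE) and did not pass. Rpe65, the retinoid isomerase of the eye, had 0 counts in all dorsal libraries and 79 in the ventral ones, of which ventral replicates 2 and 3 had none. Its ventral level was 0.865 ± 0.905 CPM, so the spread was as large as the mean. It did not meet the thresholds without dorsal replicate 4 or ventral replicate 4 or 5. With the no-feature share as a covariate its log2 fold change was -0.62 ± 1.52 (SE) and did not meet them either.

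Of 9 tested partner receptors, 1 was called higher in dorsal (15.7% of all tested genes were) and 0 in ventral libraries (9.85%). The call, Nr1h4, entered the test through dorsal libraries alone, and nothing is read from these counts. Nr1h4, the bile acid receptor, was at a low level, 1.06 ± 0.733 CPM in dorsal libraries and 0.112 ± 0.121 CPM in the ventral ones (log2 fold change 2.91 ± 0.86, SE). It did not meet the thresholds without dorsal replicate 4 (2.65) or ventral replicate 5 (2.78), and 1 dorsal and 2 ventral libraries held no read of it. The other 8, which include the thyroid hormone and liver X receptors, did not pass. The liver X receptor Nr1h3 (log2 fold change 1.67 ± 0.60, SE), which also entered the test through dorsal libraries alone, missed the fold criterion and met the thresholds in 9 of 22 alternatives, the fitted fold change among them, and Ppard (0.52 ± 0.30, SE, edgeR adjusted p = 0.184) met them in 2, both with GC content and length as offsets. Both are named after their values were seen.

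Of 12 tested genes known as targets of retinoic acid, 3 were called higher in dorsal (15.7% of all tested genes were) and 1 in ventral libraries (9.85%). The other 8 did not pass. Of the 3, Crabp2 and Rarres2 entered the test through dorsal libraries alone, and nothing is read from these counts. Ret, the receptor of glial cell line-derived factors, was at 5.47 to 8.31 CPM in dorsal against 1.05 to 3.52 CPM in ventral libraries without overlap (log2 fold change 1.54 ± 0.32, SE, edgeR adjusted p = 0.00281), and passed without each library in turn. With the no-feature share as a covariate the log2 fold change of Ret was 0.74 ± 0.56 (SE) and did not pass. Rarres2, which encodes the secreted protein chemerin, was at 0.817 ± 0.456 and 0.165 ± 0.137 CPM (log2 fold change 2.24 ± 0.73, SE). It did not meet the thresholds with DESeq2, with the edgeR 3 dispersions or without ventral replicate 4 (2.04), and it failed the filter without dorsal replicate 3 or 5. Nor did Rarres2 meet them with the no-feature share as a covariate (1.38 ± 1.30, SE). The others were Crabp2, higher in dorsal, and Dhrs3, higher in ventral libraries, which are also counted among the carriers and enzymes above. Hoxa4, Hoxd4, Cdx1 and Oxt had no read in any library.

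**Figure D4:**
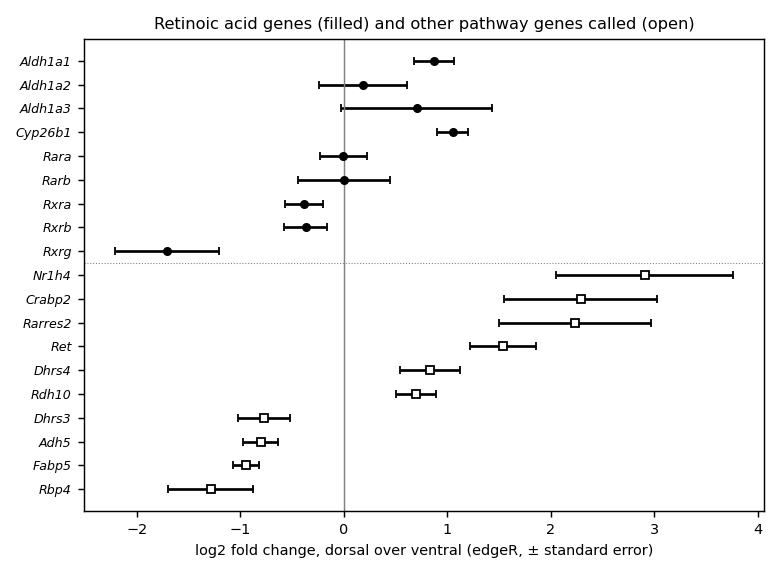
Log2 fold change, dorsal over ventral, with its standard error (horizontal axis) for the 9 members (filled points, no test) and for 10 of the other pathway genes that met the thresholds (open squares, of which Crabp2, Nr1h4 and Rarres2 entered the test through dorsal libraries alone), with Rpe65 left out because no dorsal library holds a read of it. Cyp26b1 (1.05) and Aldh1a1 (0.87) lie to the right, Rxrg (-1.71) to the left, and the open squares lie on both sides, from 2.91 for Nr1h4 to -1.29 for Rbp4.

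The genes whose level followed that of Cyp26b1 most closely were looked for among 8761 genes with a mean of at least 10 CPM, as a description over 10 libraries that share the split into groups. By Pearson correlation of log2(CPM + 1), they were Dscam (r = 0.992), Lct (0.987), Spon1 (0.983), the astrocytic glutamate transporter Slc1a2 (0.982) and Ptchd1 (0.980), all higher in dorsal libraries. After each group mean was subtracted, which leaves the spread among replicates, they were Tmpo (0.976), Apod (0.948), Dscam (0.947), Tbc1d32 (0.944) and St6galnac3 (0.940), so that Dscam, a cell adhesion gene, was in both sets of 5. Among the members, Aldh1a1 followed Cyp26b1 most closely, at 0.898 over all libraries and 0.655 after the group means were subtracted. Rxrg, at -0.836 and -0.480, ran most against it.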

How the data were processed

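Ribosome-bound RNA was measured in 5 dorsal and 5 ventral libraries. The authors aligned 50-base paired reads to GRCm38 with STAR 2.5.2b and tallied them over Ensembl genes with HTSeq 0.7.2, from RNA amplified with the Ovation V2 kit, and the deposited values are raw counts per gene. The annotation release and the strand setting are not given in the sources used here, so overlapping genes are uncertain. Rows that name no gene were left out of library sizes. Amplified reads carry no molecular identifiers, so the lowest countable level covers counting error only.

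Gene names, places and exonic lengths came from GENCODE M21 (54809 of 54838 identifiers matched) and promoters from RefSeq. The fit used edgeR 4.0.16 under R 4.3.3, with genes above 1 CPM in at least 2 libraries, TMM scaling, the quasi-likelihood test and Benjamini-Hochberg adjustment over 16806 genes, and a call needed both an adjusted p under 0.05 and a log2 ratio of mean CPM + 1 beyond 0.58 in size (the study's methods name the log2 fold change, which is an added alternative). The standard error of a fold change came from its F statistic (log2 fold change over the root of F). Level ratios used a pseudocount of 0.5 counts.

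The members and gene lists were chosen with earlier results of these data known. The quasi-likelihood dispersions of edgeR 4 were taken after 32 settings had been compared with the counts of calls from an earlier analysis of these data, since the default had given fewer calls. The edgeR 3 dispersions are an added alternative. The fit was tested on simulated data: a criterion on the share of changed genes recovered was dropped after it was missed, and those on fold bias and false calls were kept. Named genes are the 9 members, every pathway gene that was called and the 5 genes most like Cyp26b1 by each measure, and their near relatives were added after their values were seen, while cell type markers came from a fixed list. Alternatives were other scalings, filters, DESeq2 1.42.0, the replicate block and offsets for GC content and length (mgcv 1.9.3). Others were the no-feature share as a covariate, protein-coding genes alone and leaving out each library.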

Additional observations from a re-analysis of the deposited data

Results flagged for a closer look

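Of 39 groups of 5 libraries checked, 1 per gene named and region, 2 held a library far from the other 4 by Dixon's criterion, which chance gives in about 1 in 20 groups. Both concern Crabp2. In dorsal libraries, replicate 2 was lowest at 0.520 CPM, against 1.16 to 1.41 CPM in the others, and in ventral libraries replicate 2 was highest at 0.968 CPM, against 0.0472 to 0.190 CPM in the others. These levels rest on 8 counts in dorsal replicate 2 and 11 in ventral replicate 2. The other ventral libraries held 1 to 3 counts, at or below the lowest countable level. Equal replicate numbers were not shown to pair the libraries, and nothing is read from these 2 values.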

How the results depend on the processing

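No member changed the direction of a difference that met the thresholds, under 22 alternatives. With the no-feature share as a covariate, 834 of all tested genes were higher in dorsal and 339 in ventral libraries. Of the other pathway genes 1 and 1 were, and of the members 1 and 0, and the cause was not tested. Under that covariate the log2 fold changes of Aldh1a2 (1.41), Aldh1a3 (-1.05), Rarb (-1.17) and Rxra (0.07) also moved, with errors of 0.80, 1.47, 0.89 and 0.38. Among all genes, 1647 were higher in dorsal libraries when protein-coding genes alone were tested, which are fewer genes. Of the other pathway genes, 3 were higher in dorsal libraries under the stricter filter, which tests fewer genes, and 3 with the edgeR 3 dispersions, an alternative chosen after seeing the data. With GC content and length as offsets 3 were higher in ventral libraries, and the same number with the replicate block added. Leaving out each library in turn gave 2105 to 2670 genes higher in dorsal and 1216 to 1815 in ventral libraries, 3 to 7 and 2 to 6 of the other pathway genes, and 2 and 0 to 1 of the members. Rara stood above Rxra by a log2 ratio of 0.256 to 0.468 without each library in turn, and below it (-0.136) by coding exons, a length chosen after seeing the data. Rxrg stood above Rarb by 0.977 to 1.65 without each library in turn and by 0.317 by coding exons. With the fold criterion on the fitted fold change, added after seeing the data, 2679 and 1719 of all genes, 7 and 5 of the other pathway genes and 2 and 1 of the members were called.

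The equal replicate numbers were not shown to pair the libraries (correlations of deviations from -0.0317 to 0.0695), so the replicate block is an alternative only. With it the member calls were the same 3, Cyp26b1 kept its direction, and Dhrs4 (adjusted p = 0.0707) and Rbp4 (0.0597) no longer passed. An alternative with coding lengths from a protein table was not run, since that table is not used here. Without the filter on low counts the median log2 fold change of all genes shifted to 0.106. At 3 counts or 0.142 to 0.282 CPM, depth limits Aldh1a3, Rarb, Rxrg, Crabp2, Nr1h4, Rarres2 and Rpe65.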
